A study of Bos taurus with 2 samples.

Results

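The genes whose array symbol starts with UBE2 followed by a letter, most of which encode ubiquitin-conjugating enzymes, were followed in 2 fractions of bovine milk whey. The rule took every probe that is not a control and carries such a symbol, which gave 69 probes of 34 genes out of 43652 probes and 15715 named genes on the array. It used the names alone and no measured value. The symbols are those of the array's design, and 1 of them, UBE2CBP, is an older name of UBE3D, a ligase that binds UBE2C and is not itself a conjugating enzyme.

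The exosome group was 1 array of RNA from pelleted whey material, spun down for 90 min at 10000 g and washed 2 times, which the submitters call exosome, the name for small membrane vesicles released by cells. The supernatant group was 1 array of RNA from the liquid left above that pellet. RNA of 3 raw milk samples from Holstein cows was mixed in equal amounts before labelling, and 100 ng of each fraction was labelled with the dye Cy3, so both groups share the milk, the dye and the labelled mass. With 1 array per fraction there were no replicates and no test, so each difference describes this pair of arrays. The stated speed is low for pelleting small vesicles, and what else the pellet held cannot be told from the labels.

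Ubiquitin is a small protein that is joined to other proteins and marks them for degradation by the proteasome, for sorting or for signalling. An activating enzyme (E1) charges ubiquitin, a conjugating enzyme (E2) takes it over, and a ligase (E3) brings the charged E2 to the substrate. Most human E2 genes carry the UBE2 prefix, and a few of these enzymes handle relatives of ubiquitin such as NEDD8 and ISG15 in its place. Ubiquitin also marks membrane proteins for the inner vesicles of multivesicular bodies, from which exosomes are released.

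Each gene was measured by 1 or more probes of 60 bases, and 8 of the 69 probes were well above background on both arrays by the scanner software's call. The 7 of them that belong to the 6 genes described below are shown first because the differences of those genes rest on them. Of each, the 30 bases richest in G and C are given, 5′ to 3′ as the array's files hold them, with runs of 3 or more G in capitals. The number after the name is the base of the design transcript at which the probe starts.
UBE2E3 at 18, bases 12 to 41: cggcgcgcgagcGGGccGGGcGGGcggccg
UBE2G1 at 1769, bases 18 to 47: gctgtttaccctcgtacccttccccttagc
UBE2L3 at 979, bases 20 to 49: agcctcctttgagaacaccgagaaacaagc
UBE2M at 890, bases 21 to 50: tctcttcttggagcccaaccctgaagaccc
UBE2M at 1393, bases 3 to 32: ccccctccaccactggaggtcccaccaggc
UBE2N at 1120, bases 1 to 30: gcttgtgaccattttgtatggcttgtctgg
UBE2S at 961, bases 8 to 37: tggctGGGGtGGGGGaGGGcacgaGGGcac

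For comparison, these are the richest 30 bases of another probe of 5 of those genes, the one with the brightest exosome signal among the probes that were not well above background on the supernatant array.
UBE2E3 at 513, bases 5 to 34: ctgcctggacatccttaaagacaactggag
UBE2G1 at 1086, bases 29 to 58: ctgttcatgtacatccacaaatacaccttg
UBE2L3 at 622, bases 31 to 60: gaagtggtctaggtaacctgtaaagaaagg
UBE2N at 2110, bases 1 to 30: ctggagtttcttcagaatgtggtgtatttt
UBE2S at 480, bases 5 to 34: tcttccacccgaatgtGGGcgccaatggcg

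In build HGSC Btau_3.1, the coordinates of the array's files, the UBE2E3 probe at 18 lies at chr2:16218679-16218738 on the minus strand and the UBE2S probe at 961 at chr18:62484925-62484984 on the plus strand. On the minus strand lie the UBE2L3 probe at 979 (chr17:75488274-75488333), the UBE2N probe at 1120 (chr5:26007284-26007343) and the UBE2G1 probe at 1769 (chr19:24897395-24897454). The UBE2M probe at 890 covers chr18:66102573-66102733, which is 161 bases for a probe of 60, and the UBE2M probe at 1393 covers chr18:66102077-66102131, both on the minus strand. The probes were not placed against exons or untranslated regions here.

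Of the 34 genes, 33 were detected on the exosome array, meaning that at least 1 probe was well above background, and 7 were detected on the supernatant array. The exosome share, 97.1%, stood beside 69.4% of all named genes. The supernatant share, 20.6%, stood beside 22.9%. The supernatant genes described here were UBE2E3, UBE2G1, UBE2L3, UBE2M, UBE2N and UBE2S, and all 7 supernatant genes were also detected on the exosome array. The other 26 exosome genes were detected there alone, UBE2U was detected on neither array, and 0 genes were detected on the supernatant array alone. Detection on the exosome array alone was the call of 47.5% of all named genes, and detection on both of 21.9%. As 22.9% were detected on the supernatant array at all, detection there alone was rare over the whole array.

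Among the 33 genes found on the exosome array, 21.2% were also found on the supernatant array, against 31.6% of all genes found on the exosome array. By single probes, 63 of the 69 UBE2 probes (91.3%) passed the call on the exosome array, against 58.5% of all probes, and 8 (11.6%) on the supernatant array, against 13.1%. The number of probes enters these counts. All 11 UBE2 genes with 1 probe were detected on the exosome array, against 0 on the supernatant array, where 51.5% and 13.5% of all named genes with 1 probe were. Of the 15 genes with 2 probes, all 15 were detected on the exosome array, against 4 on the supernatant array, beside 74.1% and 22.3% of such genes. The 4 genes with 3 probes were all detected on the exosome array and 1 of them on the supernatant array, beside 82.8% and 30.9%. Of the 4 genes with 4 or more probes, 3 were detected on the exosome array, against 2 on the supernatant array, beside 90% and 41.5%. UBE2 genes had 2.03 probes each on average and all named genes 2.13.

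**Figure D1:**
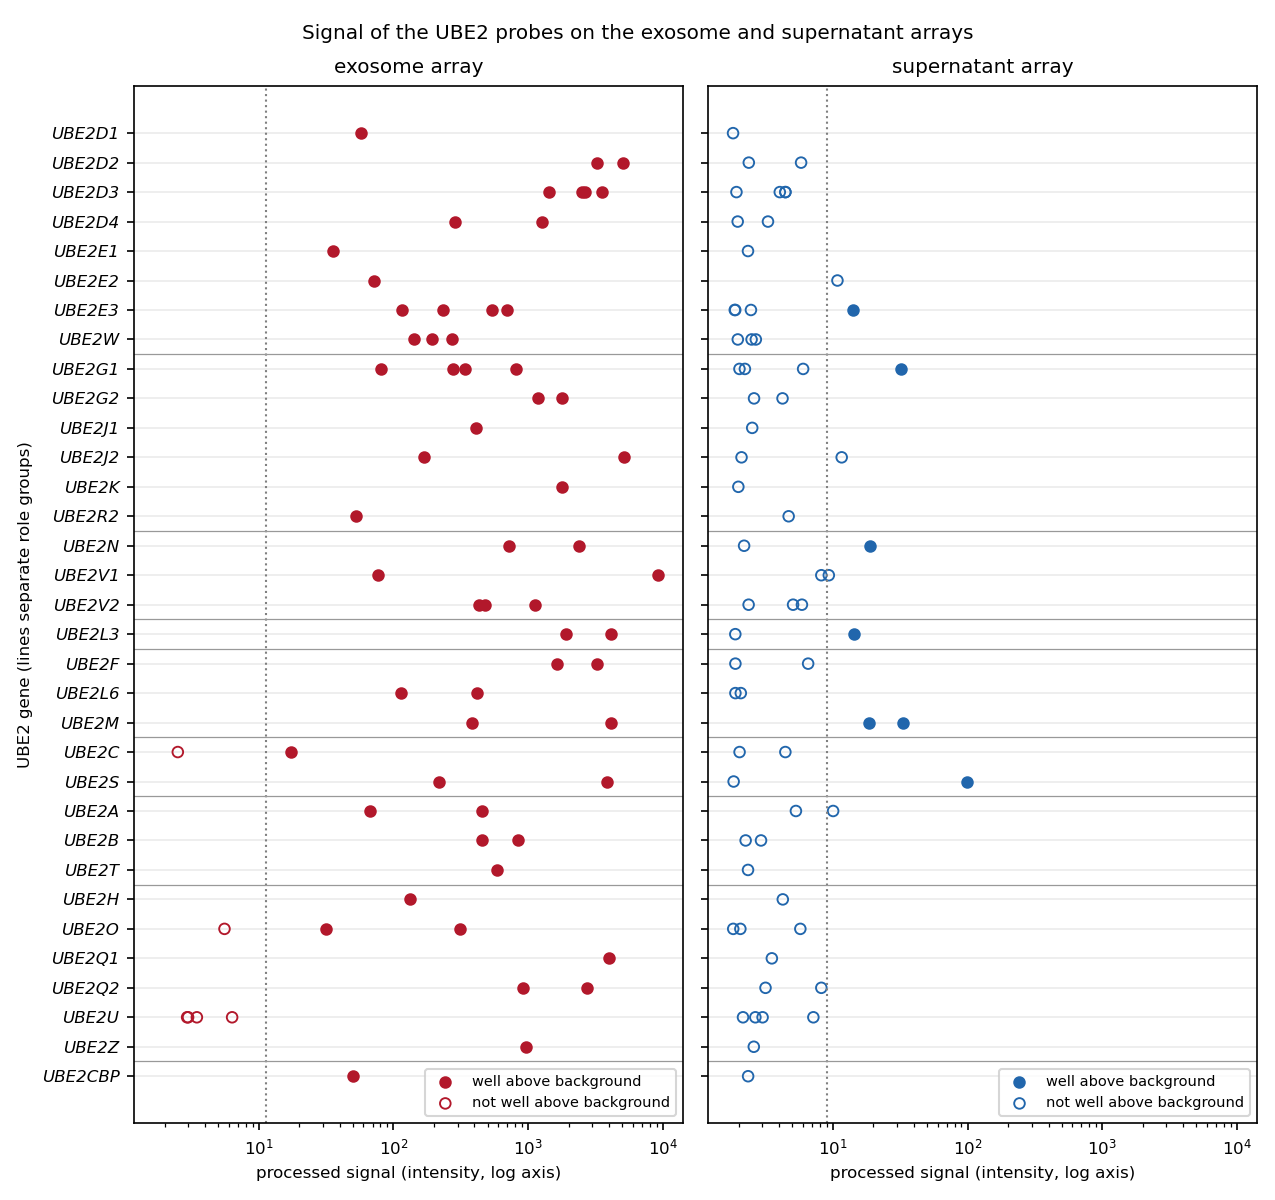
Processed signal (log axis) of each UBE2 probe of the genes described here for the exosome array and for the supernatant array, 1 row per gene, with filled points for probes well above background. Exosome signals ran up to 9202, and the 7 filled supernatant points lie between 14.2 and 99.8.

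The detection call set the supernatant count. The lowest signal called well above background was 11.3 on the exosome array, against 9.04 on the supernatant array. The 55 UBE2 probes detected on the exosome array alone had exosome signals of 17.5 to 9202, with a median of 482, and supernatant signals of 1.81 to 11.6, with a median of 2.52. With the software's weaker flag, which asks only that a spot be positive and significant against its background, 34 UBE2 genes were detected on the exosome array, against 28 on the supernatant array, beside 84.4% and 66.5% of all named genes. A gene not well above background thus had a supernatant level below the reach of the call. Whether that level was 0 cannot be told.

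The arrays differed in overall brightness. The 75th percentile of all probes was 248 on the exosome array, against 5.24 on the supernatant array, and the median gene measured on both arrays was 3.51 higher on the exosome array in log2, 11.4-fold. The 8 spike-in probes above background on both, RNA added in known amounts, were 4.87-fold brighter on the exosome array. Subtracting each array's 75th percentile put the median gene at -2.06, and on the supernatant array that percentile lies below the lowest signal called well above background. Differences are therefore given as measured, relative to that median gene and after this scaling. Since the same mass of RNA was labelled from each fraction, fewer vesicles or cells of a kind and less RNA in each cannot be told apart. The 6 milk protein genes checked (CSN1S1, CSN1S2, CSN2, CSN3, LALBA and PAEP) were above background on both arrays. Of 7 leukocyte genes, PTPRC, CD14 and CD68 were above background on both arrays and CD3E, CD79B, ITGAM and CSF3R on neither. Of the vesicle tetraspanins, CD9 was above background on both arrays and CD63 and CD81 on the exosome array alone. Their part in the UBE2 values was not tested.

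All 7 UBE2 genes measured on both arrays were brighter on the exosome array as measured, by 8.11-fold to 133-fold with a median of 50.9-fold. At least 2-fold brighter was the call of 83.4% of the 3377 genes measured on both. Relative to the median gene, 6 of the 7 were at least 2-fold higher, where 37.3% of all genes were, and 0 were at least 2-fold lower, where 36.6% were. After 75th percentile scaling, 2 of the 7 were at least 2-fold higher, against 18.1% of all genes, and 1 was at least 2-fold lower, against 63.4%. The scaling moves all 7 by the same amount. Of the genes described here, UBE2E3, UBE2G1 and UBE2S changed direction with it. UBE2L3, UBE2N and UBE2M were higher on the exosome array as measured, relative to the median gene and after 75th percentile scaling. After that scaling UBE2M was higher by only 0.11 in log2.

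UBE2L3, the conjugating enzyme known as UBCH7 that works with HECT and RBR ligases, had a signal of 1918 on the exosome array, against 14.4 on the supernatant array by its probe at 979. The software's own error on these signals, which covers the reading of a spot, was 192 on the exosome array, against 2.96 on the supernatant array. The difference was 133-fold, which is 3.55 in log2 above the median gene and 1.49 after 75th percentile scaling. UBE2L3 was the furthest above the median gene of the 7.

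UBE2N, known as UBC13, builds the ubiquitin chains used in inflammatory and DNA damage signalling together with a partner that lacks activity, UBE2V1 or UBE2V2. Its probe at 1120 had a signal of 2401 ± 240 (software error) on the exosome array, against 19.0 ± 2.93 on the supernatant array, a 126-fold difference, 3.48 above the median gene and 1.42 after scaling. Both partners were detected on the exosome array alone. UBE2V1 had exosome signals of 76.4 and 9202 by its 2 probes, beside supernatant signals of 8.21 and 9.33. UBE2V2 had exosome signals of 482, 433 and 1123 by its 3 probes, beside supernatant signals of 5.06, 5.89 and 2.37. The exosome signals were thus at least 91.3-fold higher for UBE2V1 and at least 68.2-fold higher for UBE2V2, where each bound sets the exosome signal against the supernatant signal, or against that array's lowest signal above background where this is higher, averaged in log2 over the probes detected on the exosome array.

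The 4 enzymes of ubiquitin-like modifiers were all detected on the exosome array, and 2 of them on the supernatant array. UBE2M, known as UBC12, conjugates NEDD8 and was the UBE2 gene detected on the supernatant array by all its probes. Its probe at 1393 had a signal of 4146 on the exosome array, against 33.1 on the supernatant array, and its probe at 890 had 385 on the exosome array, against 18.6 on the supernatant array. The 2 probes gave differences of 125-fold and 20.7-fold, and their mean was 50.9-fold, 2.17 above the median gene and 0.11 after scaling. UBE2F, the other NEDD8 enzyme, had exosome signals of 3242 and 1635 and supernatant signals of 1.89 and 6.55, at least 255-fold higher on the exosome array. UBE2L6, the enzyme of ISG15, had exosome signals of 115 and 418 and supernatant signals of 2.07 and 1.89, at least 24.2-fold higher. Of the 2 NEDD8 enzymes, UBE2M alone thus passed the supernatant call.

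Of the enzymes of the anaphase-promoting complex, the cell cycle ligase, UBE2S lengthens the chain and UBE2C starts it. UBE2S had a signal of 3890 ± 389 (software error) on the exosome array, against 99.8 ± 10.1 on the supernatant array by its probe at 961. The difference was 39.0-fold, 1.78 above the median gene and -0.28 after scaling. UBE2C had exosome signals of 17.5 and 2.51 by its 2 probes and supernatant signals of 4.44 and 2.03, and the first exosome signal alone passed the call. Its bound, at least 1.93-fold higher on the exosome array, was the lowest of the 26. Its exosome detection was lost at a filter of 4 times the lowest detected signal and also where every probe was required to pass.

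The UBE2D and UBE2E enzymes are partners of many RING ligases, and UBE2W attaches ubiquitin to the first residue of proteins. All 8 genes were detected on the exosome array and 1, UBE2E3, on the supernatant array. UBE2E3 had a signal of 115 ± 11.8 (software error) on the exosome array, against 14.2 ± 2.31 on the supernatant array by its probe at 18, 8.11-fold higher on the exosome array. That is 0.49 in log2 below the median gene, the lowest of the 7, and -2.54 after scaling. UBE2D2 had exosome signals of 3261 and 5051 and supernatant signals of 2.37 and 5.81, at least 449-fold higher on the exosome array, the largest bound of the UBE2 genes. UBE2D3 had exosome signals between 1438 and 3537 by its 4 probes and supernatant signals between 1.92 and 4.44, at least 267-fold higher. UBE2D4 had exosome signals of 287 and 1277 and supernatant signals of 1.96 and 3.30, at least 67.0-fold higher. All probes of these 3 genes passed the exosome call and 0 the supernatant call, which is what gives them bounds. The single probe of UBE2D1 read 57.5 on the exosome array, against 1.81 on the supernatant array, at least 6.36-fold higher. UBE2E1 read 35.4 on the exosome array, against 2.34 on the supernatant array, at least 3.91-fold higher, and its exosome detection was lost at the stricter filter of 4 times the lowest detected signal. UBE2E2 had 71.4 on the exosome array, against 10.8 on the supernatant array, at least 6.61-fold higher. The genes with 1 probe in this family had the lower bounds. UBE2W had exosome signals of 192, 142 and 273 and supernatant signals of 2.68, 2.49 and 1.97, at least 21.6-fold higher. The bounds within this family thus ran from 3.91-fold to 449-fold.

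**Figure D2:**
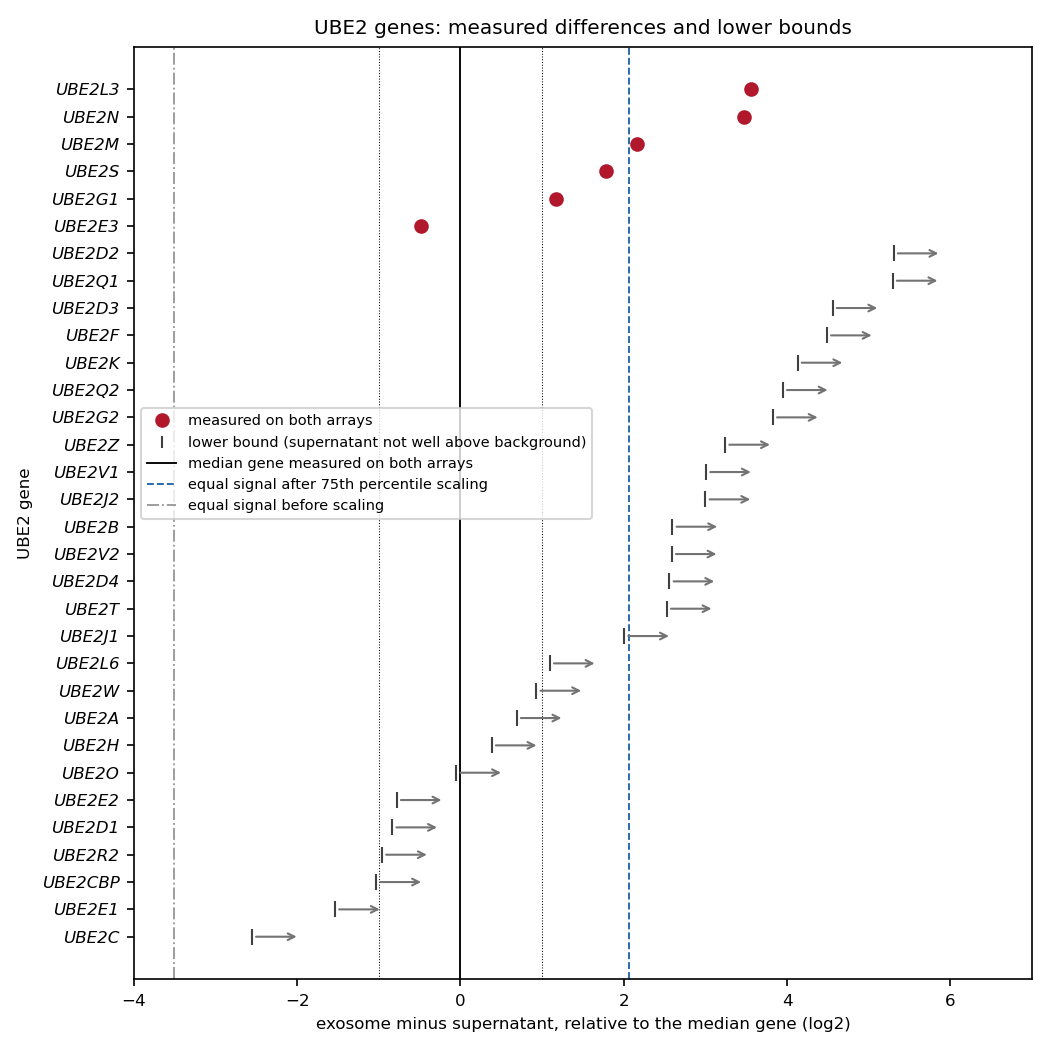
Difference between the exosome array and the supernatant array, relative to the median gene (log2), for UBE2 genes detected on the exosome array. Points are 6 genes measured on both, from -0.49 for UBE2E3 to 3.55 for UBE2L3, arrows start at the lower bounds of the 26 others, the solid line at 0 marks the median gene with dotted lines 2-fold to each side, and the dashed and dot-dash lines mark equal signal after 75th percentile scaling and before scaling.

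Among the enzymes of degradation-linked chains and of the removal of misfolded proteins from the endoplasmic reticulum (ER), all 6 genes were detected on the exosome array. UBE2G1 was also detected on the supernatant array. UBE2G1, which works with cullin ligases, had a signal of 814 ± 81.5 (software error) on the exosome array, against 32.0 ± 3.90 on the supernatant array by its probe at 1769. The difference was 25.5-fold, 1.17 above the median gene and -0.89 after scaling. UBE2G2, an enzyme of ER-associated degradation, had exosome signals of 1182 and 1794 and supernatant signals of 2.60 and 4.23, at least 161-fold higher. The membrane-anchored ER enzymes were UBE2J1, with 412 on the exosome array, against 2.52 on the supernatant array (at least 45.6-fold higher), and UBE2J2, at least 90.9-fold higher. UBE2J2 had 168 on the exosome array, against 11.6 on the supernatant array by its probe at 523, and 5174 on the exosome array, against 2.10 on the supernatant array by its probe at 1046. Neither supernatant signal was well above background, so they have no order. UBE2K read 1795 on the exosome array, against 1.99 on the supernatant array, at least 199-fold higher. UBE2R2, the CDC34-like enzyme of SCF ligases, read 52.7 on the exosome array, against 4.69 on the supernatant array, at least 5.83-fold higher.

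The 3 enzymes of DNA damage and chromatin were detected on the exosome array alone. UBE2A and UBE2B, both relatives of yeast RAD6 that ubiquitinate histone H2B and PCNA, had 2 probes each. UBE2A had exosome signals of 453 and 67.1 and supernatant signals of 5.31 and 10.04, at least 18.3-fold higher on the exosome array. UBE2B had exosome signals of 456 and 844 and supernatant signals of 2.25 and 2.93, at least 68.6-fold higher. UBE2T, the enzyme of the Fanconi anaemia repair pathway, read 591 on the exosome array, against 2.34 on the supernatant array, at least 65.4-fold higher.

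Of the remaining genes, UBE2Q1 and UBE2Q2, enzymes with an extended N-terminus, were bright on the exosome array alone. UBE2Q1 read 4024 on the exosome array, against 3.52 on the supernatant array, at least 445-fold higher, and UBE2Q2 had exosome signals of 2759 and 910 and supernatant signals of 8.21 and 3.16, at least 175-fold higher. All 3 probes of the pair passed the exosome call and 0 the supernatant call. UBE2Z, which is charged by the activating enzyme UBA6, read 971 on the exosome array, against 2.59 on the supernatant array, at least 107.4-fold higher. UBE2H, the enzyme of the CTLH ligase complex, read 134 on the exosome array, against 4.25 on the supernatant array, at least 14.8-fold higher. UBE2CBP, the ligase, read 50.2 on the exosome array, against 2.35 on the supernatant array, at least 5.56-fold higher. The bounds of these 5 genes ran from 5.56-fold to 445-fold.

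Beside UBE2C, UBE2O and UBE2U had probes that were above background on neither array. UBE2O, a large enzyme that also acts as a ligase, had exosome signals of 31.6, 310 and 5.57 by its 3 probes and supernatant signals of 2.06, 1.82 and 5.73. Only the first 2 exosome signals passed the call, and the bound from them was at least 11.0-fold. UBE2U, a little described enzyme, had exosome signals of 2.94 to 6.35 by its 4 probes and supernatant signals of 2.15 to 7.16, with 0 of the 4 probes above background on either array. Its highest exosome signal lay under the 99th percentile of the 153 negative control spots there (7.85), and its highest supernatant signal lay above that percentile (4.32) and under the brightest of those spots (7.48).

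Over the 26 genes detected on the exosome array alone, the median bound was at least 66.2-fold as measured, beside 13.9-fold for all 7466 such genes. The bound lay above the median gene's difference in 19 of the 26, against 55.4% of all such genes. After 75th percentile scaling, 8 of the 26 kept a bound of at least 2-fold, against 13.7% of all such genes: UBE2D2 (9.49), UBE2Q1 (9.41), UBE2D3 (5.65), UBE2F (5.38), UBE2K (4.20), UBE2Q2 (3.71), UBE2G2 (3.41) and UBE2Z (2.27). For 12 others the bound was under 1 after scaling and gives no direction. A high bound needs a bright exosome probe, so the order of the bounds is largely that of the exosome signals and sets no gene's level against another's.

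The probes of 1 gene often disagreed on the supernatant array. Of the 7 genes detected there, 6 were detected by 1 of their 2 to 4 probes and UBE2M by both, although every probe of all 7 was well above background on the exosome array. Over the whole array, 1484 genes had at least 2 probes, all above background on the exosome array, and a supernatant detection, and 9.23% of those were detected there by all their probes. Of the 4613 genes with at least 2 probes, all above background on the exosome array, 32.2% had a supernatant detection.

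UBE2E3, with 4 probes, was 1 of these. Its probes at 513, 563 and 1286 had exosome signals of 702, 539 and 234 and supernatant signals of 2.46, 1.88 and 1.87, while the probe at 18 had the lowest exosome signal (115) and the highest supernatant signal (14.2). The measured difference of UBE2E3 comes from the probe at 18 alone (-0.49 relative to the median gene). Without the filter on dim probes the mean over the 4 probes was 3.66, a value computed with 3 supernatant signals that are not well above background and so not a measurement. UBE2L3 likewise had 4151 on the exosome array, against 1.89 on the supernatant array by its probe at 622, where the detected probe at 979 was the dimmer one on the exosome array (1918).

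For UBE2G1, UBE2N and UBE2S the detected probe was also the brightest on the exosome array. UBE2G1 had exosome signals of 81.6, 277 and 340 and supernatant signals of 2.22, 2.02 and 6.01 by its other 3 probes. UBE2N had 728 on the exosome array, against 2.19 on the supernatant array by its probe at 2110. UBE2S had 218 on the exosome array, against 1.83 on the supernatant array by its probe at 480. Over the array's 533 genes with at least 2 probes above background on both arrays, the SD between probes of a gene in the difference was 1.72 in log2, while spots of 1 probe had an SD of 0.18 over 9 probes.

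**Figure D3:**
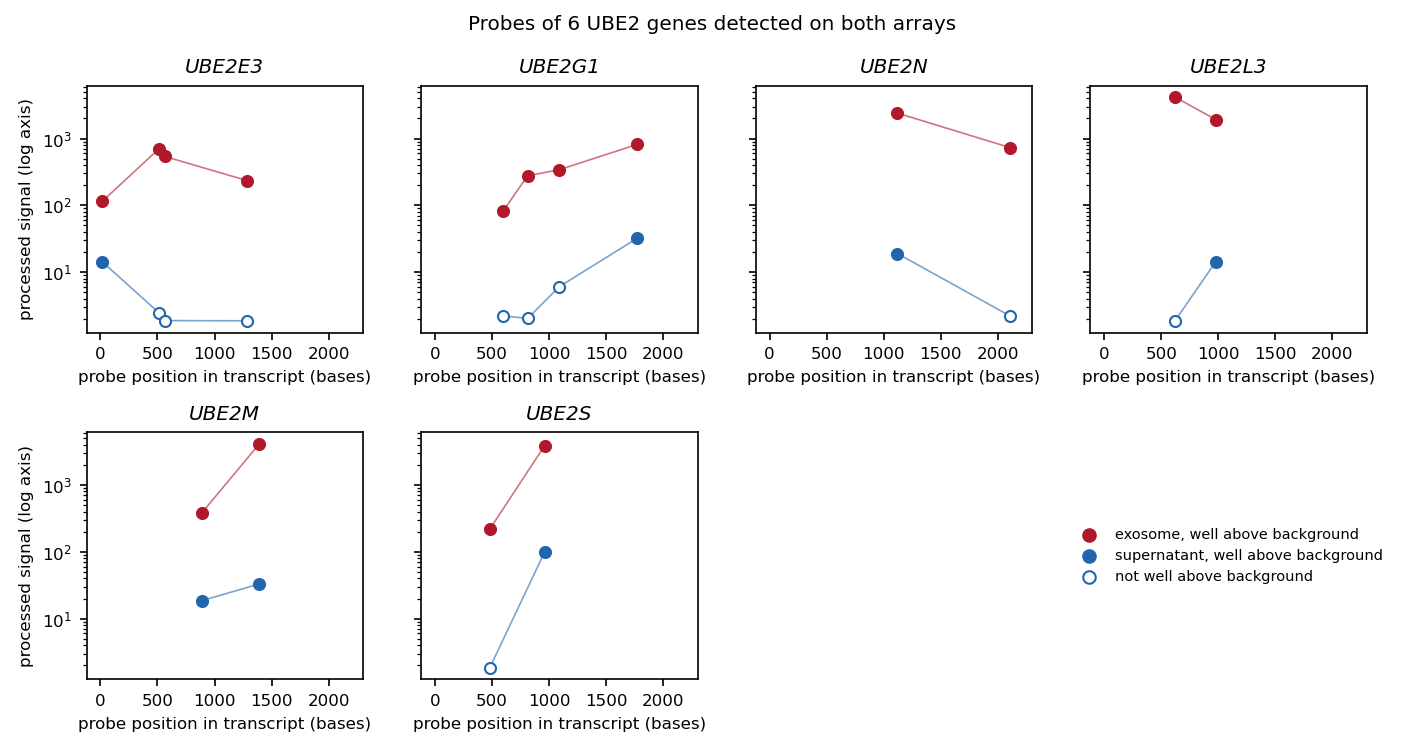
Signal (log axis) of each probe against its start on the design transcript (bases) for 6 UBE2 genes detected on both arrays, with exosome and supernatant points and filled points for probes well above background. In UBE2E3 the filled supernatant point is the probe at 18, which has the lowest exosome signal of its 4 probes, and UBE2M alone has all supernatant points filled.

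Base composition moved with the supernatant call. Of the 5 UBE2 probes with more than 50% G and C, 3 were well above background on the supernatant array (60%), against 5 of the 64 others (7.81%), and over all probes the shares were 22.7% and 10.9%. The 3 probes were those of UBE2E3 at 18 (66.7% G and C), UBE2S at 961 (53.3%) and UBE2M at 1393 (51.7%). The UBE2S probe at 961, shown above, is the 1 UBE2 probe with a run of 5 or more G, and 37.7% of the array's 1256 such probes were above background on the supernatant array, against 12.4% of the rest. The other UBE2S probe, with 55% G and C and no run of more than 3 G, had 1.83 there. The other 5 probes detected on both arrays had 35% to 45% G and C and no run of 3 G. The part of base composition in the supernatant values was not tested.

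Probes of a gene also differed on the exosome array. In the 21 genes with at least 2 probes above background, the brightest exosome signal was 1.52 to 120 times the dimmest, with a median of 3.64, beside a median of 6.19 for 5877 named genes. The widest spreads were those of UBE2V1 (120), UBE2J2 (30.9) and UBE2S (17.9), and the narrowest that of UBE2G2 (1.52). In 15 of the 19 genes whose probes lie on 1 design transcript (78.9%), the last probe was brighter than the first, against 78.2% of 5548 named genes. The median ratio of the last to the first was 2.03, beside 3.46. The 4 exceptions were UBE2F, UBE2L3, UBE2N and UBE2Q2. The position of the probes thus went with the exosome signal in UBE2 genes as often as elsewhere.

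Closely related members could in principle share a probe's target. Between probes of different UBE2 genes the longest shared run was 14 bases, in UBE2D2 and UBE2D3, and every other pair shared 11 or fewer. The shared run is in capitals in 30 bases of each probe, of which 25 match.
UBE2D2 at 751, bases 7 to 36: TCACAGTGGTCTCCagcactaactatttca
UBE2D3 at 504, bases 24 to 53: TCACAGTGGTCTCCtgctttaattatttct

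These probes had 3261 (UBE2D2) and 2531 (UBE2D3) on the exosome array, and neither was above background on the supernatant array (2.37 and 4.44). The other probes of both genes, which share no run of 14 bases, read 1438 to 5051 on the exosome array. Probes were compared with probes and not with the transcripts of related genes. Whether those transcripts added to these signals was not tested. No probe of another name on the array shared 25 bases in a row with a UBE2 probe in either orientation.

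The rest of the pathway was read from lists of genes. All 4 ubiquitin genes were measured on both arrays, where 21.9% of all named genes were detected on both. Their median was 6.70 in log2 above the median gene. UBB, which encodes a chain of ubiquitins, had 15135 on the exosome array, against 13.9 on the supernatant array over its 2 probes measured on both (6.58 above the median gene). The differences of the 7 measured UBE2 genes ran from -0.49 to 3.55. The 26 UBE2 genes with only a bound cannot be placed against UBB. The bound of UBE2D2, for example, was 5.31 above the median gene and sets no upper limit.

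All 10 E1 genes were detected on the exosome array, against 5 on the supernatant array, at a median of 2.07 above the median gene, with 3 at least 2-fold above it and 2 at least 2-fold below. UBA1, the main activating enzyme of ubiquitin, was 4.50 above it, with 9370 on the exosome array, against 36.6 on the supernatant array. SAE1, a subunit of the SUMO activating enzyme, was 3.49 above it. UBA3, a subunit of the NEDD8 activating enzyme, was 2.07 above it by 1 of its 2 probes. UBE2M was at 2.17, the mean of 3.46 and 0.87 for its 2 probes. MOCS3, which activates the modifier URM1, was at -2.73, with 6890 on the exosome array, against 4025 on the supernatant array. UBA6, the partner of UBE2Z, was detected on the exosome array alone (at least 11.8-fold higher).

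Of 8 conjugating enzymes and relatives named without the UBE2 prefix, all 8 were detected on the exosome array and 1, TSG101, on the supernatant array. TSG101, an inactive E2 relative that sorts ubiquitinated cargo into vesicles, had 3856 on the exosome array, against 24.5 on the supernatant array, 3.79 above the median gene. CDC34, the SCF enzyme, was at least 53.9-fold higher on the exosome array, and UFC1, the enzyme of the modifier UFM1, at least 1268-fold. The supernatant array thus detected 1 of these 8 (12.5%) and 7 of the 34 UBE2 genes (20.6%), beside 22.9% of all named genes. The exosome shares were 100% and 97.1%, beside 69.4%.

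**Figure D4:**
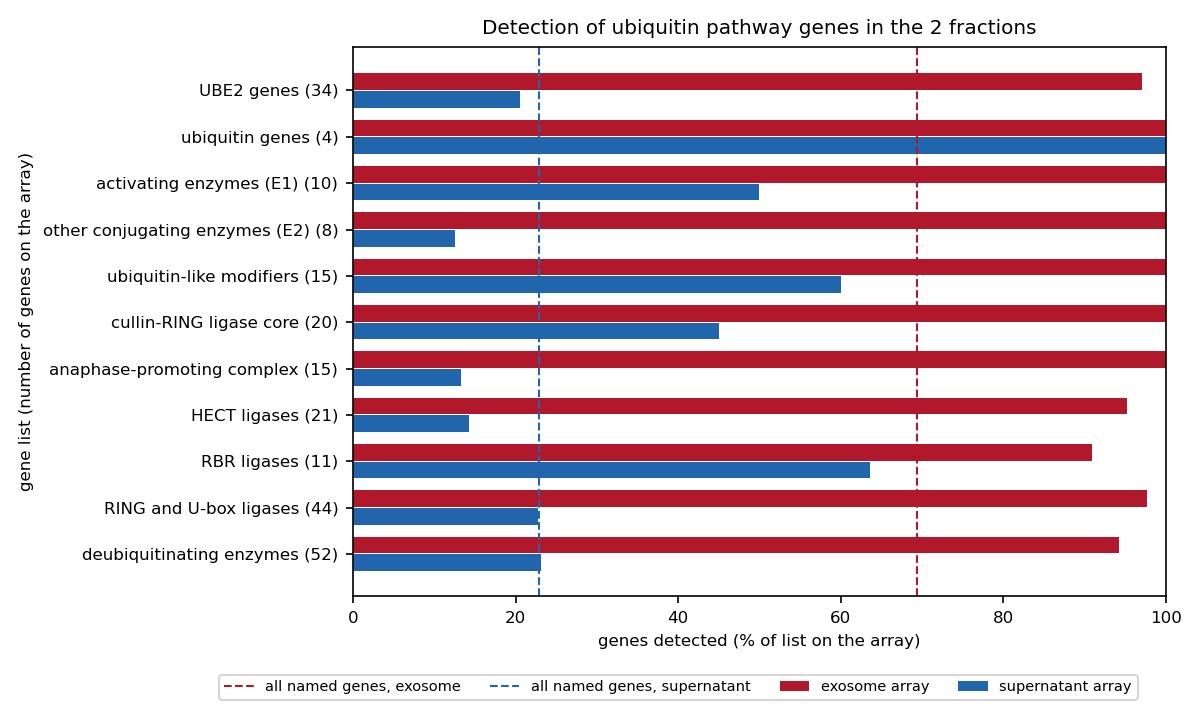
Share of each gene list (percent of its genes on the array) detected on the exosome array and, next to it, on the supernatant array, with dashed lines at the shares of all named genes, 69.4% and 22.9%. The UBE2 bars stand at 97.1% and 20.6%, and the ubiquitin genes at 100% on both.

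Of the 15 ubiquitin-like modifier genes, all 15 were detected on the exosome array, against 9 on the supernatant array. Their median was 4.24 above the median gene. All 9 were at least 2-fold above it, against 37.3% of all genes measured on both arrays. SUMO2 was 3.13 above it. NEDD8, attached by UBE2M and UBE2F, was 3.63 above it. ISG15, attached by UBE2L6, was detected on the exosome array alone, at least 3.27-fold higher, as was its enzyme. Of the 20 core genes of cullin ligases, all 20 were detected on the exosome array, against 9 on the supernatant array, at a median of 2.67. Of the 15 genes of the anaphase-promoting complex, the partner of UBE2C and UBE2S, all 15 were detected on the exosome array, against 2 on the supernatant array, ANAPC15 at 0.99 and ANAPC5 at -3.63.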

How the data were processed

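The exosome pellet and the supernatant of whey were measured on 1 array each, both on the same slide and scan. The deposited intensity values are processed signals of 1-colour Agilent arrays from Agilent Feature Extraction 10.7.3.1, background-subtracted within each array, per the file headers. In the authors' deposited table, the log2 values match these signals to within 0.001 at each of 43603 probes with 1 spot. Further steps are not given in the labels or headers.

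Control and outlier spots were left out and spots of a probe averaged. No UBE2 probe was saturated or had an outlier flag. Each array's 75th percentile was subtracted in log2. A gene was detected where any probe was well above background, and its difference is the mean over probes detected on both arrays. Named genes are those with a symbol other than their accession or a LOC number. The accessions of 64 of the 69 UBE2 probes matched the gene table of assembly ARS-UCD2.0. Counts and medians cover all 34 genes, and a few genes are not reported singly here. The members and lists were chosen with earlier results of these data known. With 1 array per fraction no test was possible, so the precision is limited by the number of arrays. The alternatives were other scalings, normexp (limma 3.58.1, R 4.3.3, offset 50), other filters and the brightest probe. Calculations (Python 3.11.15) were tested on simulated data.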

Additional observations from a re-analysis of the deposited data

How the results depend on the processing

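The exosome count stayed between 31 and 34 genes under every filter tried. The supernatant count was 28 with the weaker flag, 2 with the stricter filter of 4 times the lowest detected signal and 1 where all probes had to pass (UBE2M). Set against the median gene, the median UBE2 difference, 2.17 in the report, was 1.89 with quantile scaling, 2.57 with the weaker flag, 2.41 with the stricter filter, 4.09 with no filter and 2.53 with the brightest probe. The genes at least 2-fold above the median gene numbered 21 of 28 measured with the weaker flag (38.8% of all genes measured so), 2 of 2 with the stricter filter (34.0%), 29 of 34 with no filter (40.9%) and 1 of 1 where all probes had to pass (37.7%), so these counts follow how many genes are measured. Those at least 2-fold below it numbered 3 with the weaker flag (UBE2C, UBE2O and UBE2U, 37.6% of all genes) and 2 with no filter (40.4%). The median difference after scaling, 0.11 by the 75th percentile, was 2.18 by the array median, -0.84 by quantiles, 5.67 with no scaling, 3.39 by spike-ins, 2.21 with normexp, 0.42 with the weaker flag, 1.44 with no filter and 0.72 with the brightest probe. UBE2E3 was at 3.66 with no filter, where 3 probes not well above background on the supernatant array enter. The cause of the other shifts was not tested. Updated symbols leave 33 genes, without UBE2CBP. No paired analysis was possible because each fraction had 1 array. The supernatant array's signal over background limits what can be read, since 26 genes have only a bound.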

Other observations

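The ligases and deubiquitinases that act after the conjugating enzymes were also read. Of 11 RBR ligases, the class that takes ubiquitin from UBE2L3, 10 were detected on the exosome array, against 7 on the supernatant array, at a median of 1.69 in log2 above the median gene. RNF216 was 4.36 above it, RBCK1, a subunit of the linear chain ligase, 2.71, and ARIH1, a partner of cullin ligases, 1.69. RNF31, the catalytic subunit of the linear chain ligase, was at 0.62. Of 21 HECT ligases, 20 were detected on the exosome array, against 3 on the supernatant array, at -0.31 for HUWE1, -2.12 for WWP1 and -3.20 for HERC1. The 7 RBR genes measured on both arrays lay above the median gene, 4 of them at least 2-fold, where 37.3% of all genes were. The 3 measured HECT genes lay below it, 2 of them at least 2-fold, where 36.6% of all genes were. The other 17 HECT genes detected on the exosome array have only a bound. Each HECT value rests on 1 probe, of 5 for HUWE1 and HERC1 and of 4 for WWP1. That WWP1 probe had 33.8 on the exosome array, against 13.0 on the supernatant array. The HUWE1 probe had 102 on the exosome array, against 11.1 on the supernatant array, while another HUWE1 probe had 1582 on the exosome array. The HERC1 probe had 26318 on the exosome array, against 21288 on the supernatant array. Of the RBR genes, RNF31 and RNF144B had 2 probes measured on both arrays and the others 1. The SD between probes of a gene was 1.72 in log2, and the difference between the classes was not tested.

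Of 44 RING and U-box ligases, 43 were detected on the exosome array (97.7%), against 10 on the supernatant array (22.7%). The shares of all named genes were 69.4% and 22.9%. The median of these ligases was 1.33. RNF130 (3.63) and TRIM25 (3.04) were the highest, TRIM25 being a ligase of antiviral signalling. RNF4, which recognises SUMO chains, was at -1.66 by 1 of its 3 probes. That probe had 48.1 on the exosome array, against 13.4 on the supernatant array. The brightest exosome signal of RNF4, 1841, came from another probe, which was not well above background on the supernatant array. Of 52 deubiquitinases, 49 were detected on the exosome array (94.2%), against 12 on the supernatant array (23.1%), at a median of 0.77. BAP1, which removes ubiquitin from histone H2A, was at 3.77 by 1 of its 3 probes and USP21 at -5.71 by 1 of its 2. That USP21 probe had 55.8 on the exosome array, against 257 on the supernatant array. OTUB2 was detected on the supernatant array alone, by 1 of its 2 probes.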
